A study of Mus musculus with 9 samples.

Results

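The lysosomal cathepsins and legumain are the peptidases that degrade proteins inside lysosomes and late endosomes. Measured here were 8 of their genes in splenic CD11b+ cells of mice: Lgmn (legumain) and Ctsb, Ctsc, Ctsd, Ctsh, Ctsl, Ctss and Ctsz (cathepsins B, C, D, H, L, S and Z). Every probe set of the array whose platform annotation gave exactly 1 of these symbols was taken, whatever its signal. This gave 13 of the 12488 probe sets on the array, for 8 of the 8252 genes named by a probe set with a single symbol. The filter on dim probe sets kept 11 of the 13, so that each gene was tested, among 8695 tested probe sets in all. The 2 left out were a further Ctsb probe set (162271_f_at), with signals between 4.10 and 18.6 over the 9 arrays, and a further Ctsc probe set (161251_f_at), with signals between 2.45 and 29.2.

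The RNA came from spleen cells selected for CD11b (integrin alpha M, carried by neutrophils, monocytes and macrophages), all from female mice of 8 to 12 weeks, on Affymetrix MG-U74Av2 arrays. There were 3 groups of 3 arrays: cells of tumor-bearing mice kept for 24 h in complete medium (cultured), cells of tumor-bearing mice without culture (fresh), and cells of tumor-free mice without culture (tumor-free). The labels name neither the strain nor the tumor, no tumor-free cells were cultured, and arrays are called here by group and replicate number. The labels do not say whether the 3 arrays of a group stand for different mice, so every p-value reflects the scatter of these arrays alone, part or all of which may be technical. The 3 comparisons share arrays, and the comparison of cultured with tumor-free cells differs both in the tumor and in the culture, which cannot be told apart.

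These enzymes are made as inactive proforms, tagged with mannose 6-phosphate, sorted to the endolysosome and activated there by cleavage in acid. Cathepsins B, C, H, L, S and Z are cysteine peptidases of the papain family, cathepsin D is an aspartic peptidase, and legumain is a cysteine peptidase of another family that cuts after asparagine and also trims other cathepsins. In phagocytes they digest engulfed material and prepare peptides for MHC class II, and cystatins and some serpins hold them in check.

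In each group 1 array stood apart from the other two. The lowest correlation with an array of its own group, over the tested probe sets, was 0.823 for tumor-free 1, 0.874 for fresh 3 and 0.850 for cultured 3, against 0.929 to 0.957 within the remaining pairs. The ratio of beta-actin 3′ to 5′ signal, a measure of RNA and cRNA integrity, ranged from 0.994 to 2.57 and was highest on tumor-free 1, and the mean log2 signal of the bacterial spike-in controls ranged from 8.99 to 10.5. Split at the median spike-in signal, tumor-free 1, fresh 1 and 2 and cultured 1 and 2 were high, and the others were low. Each array that stood apart thus differed in spike-in class from the rest of its group. The part of this split in their departure was not tested. Itgam, the gene of CD11b, had signals of 333 to 954 on cultured arrays, 392 to 585 on fresh arrays and 244 to 373 on tumor-free arrays. The summed signal of 11 macrophage markers was 4702 to 7091 on cultured arrays, 2897 to 3101 on fresh arrays and 4956 to 16501 on tumor-free arrays, with tumor-free 1 the lowest of its group. The sum is dominated by its brightest markers: in cultured against fresh cells Hmox1 rose and Mrc1 fell, and the median log2 difference of the 11 markers was -0.73. The summed signal of 12 neutrophil markers was 16022 to 46912 on cultured, 48944 to 61253 on fresh and 33297 to 48477 on tumor-free arrays. This sum too is dominated by its brightest markers. In fresh against tumor-free cells 0 of the 12 were called higher and 1 lower, beside 1.90% of all tested probe sets called in either direction. Their median log2 difference was 1.55, while Cxcr2 was lower, at 51.0 to 75.2 on fresh and 163 to 275 on tumor-free arrays. The summed signal of 7 exocrine pancreas markers was 353 to 925 on cultured, 11824 to 19919 on fresh and 418 to 668 on tumor-free arrays. In these bulk samples fewer cells of a type and less RNA per cell cannot be told apart.

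Among the members, Lgmn fell in fresh and in cultured cells against tumor-free cells, and no other member passed the test in any comparison. Fold changes are on the log2(signal + 7.83) scale, which understates the change of dim probe sets, and were tested with limma over all 8695 probe sets with Benjamini-Hochberg adjustment at 0.05. In fresh against tumor-free cells 1 of 11 member probe sets was called, beside 1.90% of all tested probe sets, and 3 of 11 had an unadjusted p below 0.05, beside 16.7%. In cultured against fresh cells 0 of 11 were called, beside 2.69% of all, and 3 of 11 had an unadjusted p below 0.05, beside 16.3%. In cultured against tumor-free cells 1 of 11 was called, beside 1.23%, and 4 of 11 had an unadjusted p below 0.05, beside 14.1%.

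Groups that did not overlap were seen for 2 of 11 member probe sets in fresh against tumor-free cells, both lower in fresh cells (Lgmn and Ctsb 94831_at), beside 22.4% of all tested probe sets in either direction and 13.1% in that direction. In cultured against fresh cells there were 4 of 11, all higher in cultured cells (Ctsl, Ctsb 94831_at, Ctss and Ctsz), beside 22.2% in either direction and 13.4% in that direction. In cultured against tumor-free cells there were 3 of 11, Ctsl and Ctss higher and Lgmn lower in cultured cells, beside 18.5% of all, of which 10.3% were higher and 8.20% lower. The median log2 difference of the 11 member probe sets was -0.21, 0.44 and 0.38 in these comparisons in turn, and that of all tested probe sets 0.01, 0.02 and 0.05. Without tumor-free 1, fresh 3 and cultured 3, a choice made after seeing that they stood apart, 5, 5 and 7 of the 11 were called, among 2141, 1368 and 1813 of all probe sets; removing the most discordant arrays lowers the spread by construction.

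**Figure D1:**
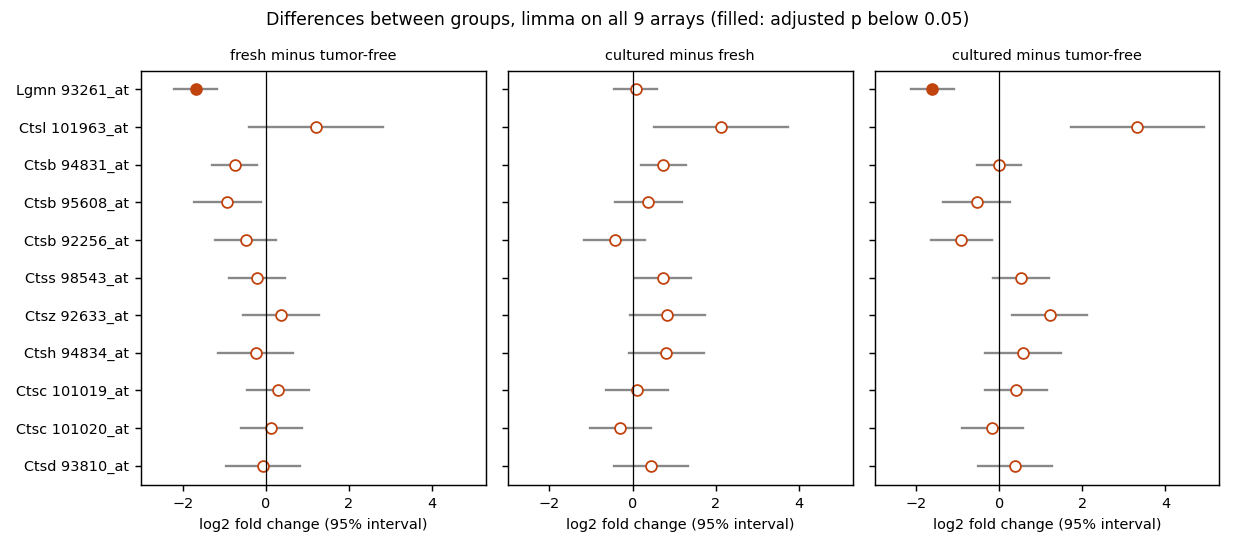
Log2 fold change of each member probe set with its 95% interval (x axis) in the 3 comparisons (panels), from the limma fit on all 9 arrays; filled points have an adjusted p below 0.05. Lgmn is filled at -1.69 in fresh minus tumor-free and at -1.61 in cultured minus tumor-free, and Ctsl lies farthest to the right, at 3.33, in cultured minus tumor-free with a wide interval.

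Lgmn, whose product cuts after asparagine, had signals of 98.8, 128 and 91.1 on cultured arrays 1 to 3, 89.9, 92.6 and 118 on fresh arrays, and 333, 366 and 316 on tumor-free arrays. All 6 arrays of tumor-bearing mice lay below all 3 tumor-free arrays, and the cultured and fresh arrays overlapped. The group means were 106 ± 19.7 in cultured, 100.1 ± 15.4 in fresh and 338 ± 25.5 in tumor-free cells (SD, n = 3 each). Lgmn fell by 1.69 ± 0.23 (SE) on the log2 scale in fresh against tumor-free cells, which is 3.22-fold lower (95% interval 2.25 to 4.61), with a limma adjusted p of 0.00464. By p-value it ranked 36 of the 8695 tested probe sets. In cultured against tumor-free cells it fell by 1.61 ± 0.23, which is 3.06-fold lower (95% interval 2.14 to 4.38), with a limma adjusted p of 0.0109. Cultured and fresh cells differed by 0.07 on the log2 scale, with a 95% interval from -0.44 to 0.59.

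The lower Lgmn signal in fresh cells was called with each of the 9 arrays left out in turn, with limma adjusted p between 0.00345 and 0.0387. For cultured against tumor-free cells it no longer passed when tumor-free 2 (limma adjusted p = 0.0581) or tumor-free 3 (0.0568) was left out, or with only the cultured and tumor-free arrays fitted (0.0533). Within the arrays of high and of low spike-in signal, Lgmn differed by -1.78 and -1.47 between fresh and tumor-free cells, and by -1.50 and -1.81 between cultured and tumor-free cells, with 1 or 2 arrays in a group and no test.

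Macrophage markers moved in the same comparisons. Of 11 tested, 5 were called lower in fresh against tumor-free cells (C1qa, C1qb, Mrc1, Hmox1 and Aif1), beside 0.955% of all tested probe sets. In cultured against tumor-free cells 4 were called lower (C1qa, C1qb, C1qc and Mrc1), beside 0.644%. In these comparisons 8 and 7 of the 11 had an unadjusted limma p below 0.05 in either direction, beside 16.7% and 14.1% of all. The median log2 differences of the 11 were -1.80 and -1.87, beside 0.01 and 0.05 for all tested probe sets. C1qa, a complement subunit made by tissue macrophages, had signals of 46.4, 77.2 and 154 on cultured arrays, 126, 151 and 171 on fresh arrays, and 380, 2019 and 2426 on tumor-free arrays. Tumor-free 1, where C1qa was lowest of its group, had an Lgmn signal of 333, between the 316 and 366 of the other two. The markers did not move together on that array. Hmox1 (1685 against 3774 and 4089) and Aif1 (155 against 342 and 307) were lowest there too. Mrc1 was highest there, at 861 against 322 and 365. The part of macrophage content in the Lgmn result was not tested.

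The bases upstream of the annotated transcription start are shown for Lgmn, the member that passed the test, and for Ctsd, whose window holds the motif of the MiT/TFE factors that control lysosomal genes. They are the 250 bases before the start in RefSeq GRCm38.p6, read 5′ to 3′ on the gene's strand, for Lgmn chr12:102439729-102439978 on the minus strand and for Ctsd chr7:142387828-142388077 on the minus strand. The capitals mark matches, on either strand, to the motifs searched: CACGTG (E-box of MiT/TFE factors and others), TGANTCA (AP-1), GAGGAAGT (PU.1), CCAAT (NF-Y), GGGCGG (Sp1) and the GAAA repeat of IRF factors.
Lgmn: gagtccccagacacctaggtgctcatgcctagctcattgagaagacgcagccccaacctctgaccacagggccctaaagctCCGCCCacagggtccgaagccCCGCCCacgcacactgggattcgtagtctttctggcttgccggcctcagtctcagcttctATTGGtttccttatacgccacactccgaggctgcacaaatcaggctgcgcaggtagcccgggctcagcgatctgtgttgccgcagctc
Ctsd: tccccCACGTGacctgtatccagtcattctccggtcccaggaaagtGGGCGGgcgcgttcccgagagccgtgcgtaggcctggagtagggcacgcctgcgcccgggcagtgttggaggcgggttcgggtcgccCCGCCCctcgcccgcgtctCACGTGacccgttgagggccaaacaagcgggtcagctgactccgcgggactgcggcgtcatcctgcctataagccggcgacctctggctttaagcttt
The Lgmn window holds GGGCGG at 169 to 164 and at 148 to 143 bases before the start and CCAAT at 88 to 84. The Ctsd window holds CACGTG at 245 to 240 and at 98 to 93 bases before the start and GGGCGG at 204 to 199 and at 117 to 112. No match in these windows overlaps another.

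RefSeq windows were found for 6 of the 8 genes, 7 in all since Lgmn has 2 annotated starts, and none was found for Ctsb and Ctsh. CACGTG was present in 3 of the 7 windows (Ctsd, Ctsl and the inner start of Lgmn) and in 6.02% of the 32851 promoter windows of the same length. Of these 3, only the Ctsd window lies at the outermost annotated start of its gene. The Ctsl window, like the inner Lgmn window, does not, nor does the Ctsc window. GGGCGG was in 5 of 7 and 32.7%, CCAAT in 2 of 7 (Ctsz and Lgmn) and 33.8%, GAGGAAGT in 1 (Ctsc) and 2.44%, the IRF repeat in 1 (Ctss) and 2.98%, and TGANTCA in 0 and 6.75%. A match is a run of letters and not a measured binding site.

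Ctsl, which encodes an endopeptidase, had its highest signals in cultured cells. The signals were 1709, 2271 and 2016 on cultured arrays, 416, 380 and 573 on fresh arrays, and 944, 92.2 and 74.3 on tumor-free arrays. Every cultured array lay above every fresh and every tumor-free array. Tumor-free 1 lay above all 3 fresh arrays, while tumor-free 2 and 3 lay below them. The difference between cultured and fresh cells was 2.13 ± 0.73 (SE) on the log2 scale, or 4.36-fold (95% interval 1.43 to 13.3), with a limma adjusted p of 0.164. Between cultured and tumor-free cells it was 3.33 ± 0.73, or 10.04-fold (95% interval 3.29 to 30.6), the eighth largest rise of all tested probe sets, with a limma adjusted p of 0.0598. Between fresh and tumor-free cells it was 1.202 ± 0.73, with an interval from -0.41 to 2.81 and a limma adjusted p of 0.420.

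Whether Ctsl passed the test depended on 1 array and on the terms of the model. Without tumor-free 1, the difference was 2.33 for fresh against tumor-free cells (limma adjusted p = 0.000558), 2.13 for cultured against fresh cells (0.000807) and 4.46 for cultured against tumor-free cells (2.43e-05). The cultured against fresh difference itself did not change, since tumor-free 1 is in neither group, and only the shared spread was lower. With cultured and fresh arrays alone in the model, the difference between them was called (limma adjusted p = 0.00325). Within the arrays of high and of low spike-in signal, cultured cells exceeded fresh cells by 2.29 and 1.80 and tumor-free cells by 1.06 and 4.48, and fresh minus tumor-free was -1.23 and 2.68, all on the log2 scale and with no test. The beta-actin ratio was 2.27, 2.36 and 1.16 on cultured arrays, 1.59, 1.58 and 1.35 on fresh arrays, and 2.57, 0.994 and 1.19 on tumor-free arrays, so it too was high on tumor-free 1 and on cultured 1 and 2. With this ratio as a covariate, cultured minus tumor-free was 2.81 and passed the test (limma adjusted p = 0.0264), and cultured minus fresh was 1.69 and did not (0.109). Tumor-free 1 had the lowest macrophage marker sum of its group (4956) but the group's highest Mrc1 signal (861). The part of macrophage content in its Ctsl signal was not tested.

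**Figure D2:**
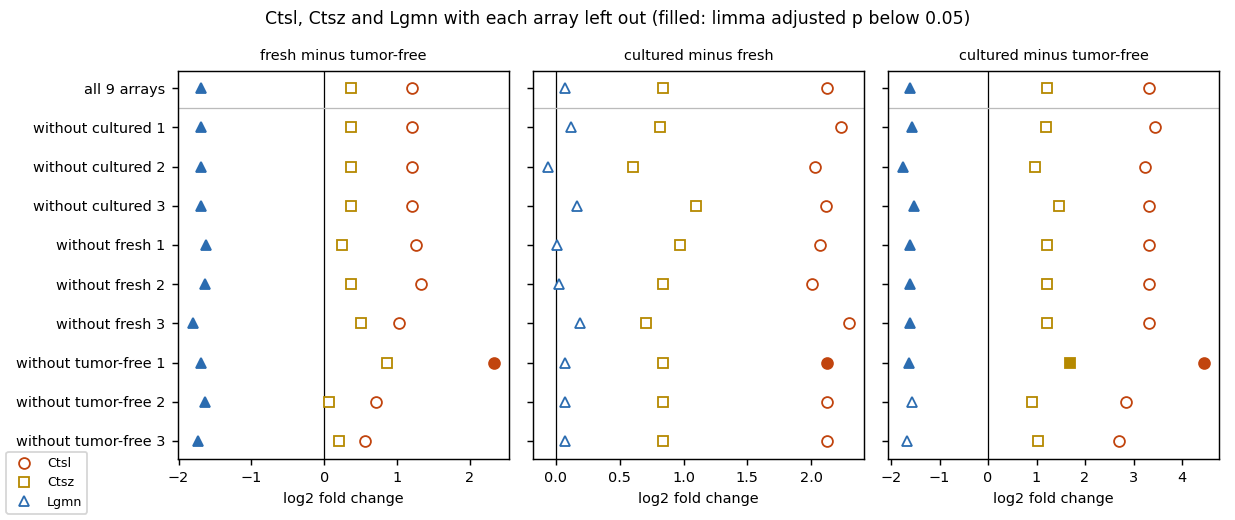
Log2 fold change of Ctsl, Ctsz and Lgmn (x axis) in the 3 comparisons (panels) with each of the 9 arrays left out in turn; filled points have a limma adjusted p below 0.05. Ctsl is filled in all 3 panels only where tumor-free 1 is left out, and Lgmn is filled at every point in fresh minus tumor-free and at 7 of 9 in cultured minus tumor-free.

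Ctsb, an endopeptidase that also removes dipeptides from the C-terminus, was measured by 3 tested probe sets. The brightest, 94831_at, had signals of 1729, 1926 and 2073 on cultured arrays, 1204, 1090 and 1117 on fresh arrays, and 1574, 1913 and 2341 on tumor-free arrays. All fresh arrays lay below all others, and cultured and tumor-free arrays overlapped. Fresh minus tumor-free was -0.75 ± 0.24 (SE) and cultured minus fresh 0.74 ± 0.24 on the log2 scale, with limma adjusted p of 0.149 and 0.147. Cultured minus tumor-free was -0.01, with a 95% interval from -0.55 to 0.53.

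Probe set 95608_at of Ctsb had signals of 109, 180 and 220 on cultured arrays, 125, 98.7 and 153 on fresh arrays, and 141, 331 and 298 on tumor-free arrays, with overlap in every comparison. Its fresh minus tumor-free difference was -0.92 (limma adjusted p = 0.236), and -1.29 without tumor-free 1 (0.0359). Probe set 92256_at had signals of 42.9, 83.3 and 51.2 on cultured arrays, 83.9, 86.7 and 68.6 on fresh arrays, and 72.7, 162 and 125 on tumor-free arrays, also with overlap in every comparison. Its cultured minus fresh difference was -0.43, whereas that of 94831_at was 0.74 and that of 95608_at 0.38, so the probe sets of Ctsb disagreed in direction there. Over the 9 arrays, which include 3 of each group, 94831_at correlated with 95608_at at r = 0.74 and with 92256_at at r = 0.17.

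Ctss, an endopeptidase that degrades the invariant chain of MHC class II in antigen-presenting cells, had signals of 7746, 8875 and 5837 on cultured arrays, 5325, 5071 and 3219 on fresh arrays, and 5566, 5068 and 4777 on tumor-free arrays. The cultured arrays lay above all others, and fresh and tumor-free arrays overlapped. Cultured minus fresh was 0.73 ± 0.31 (SE) and cultured minus tumor-free 0.52 ± 0.31 on the log2 scale, with limma adjusted p of 0.263 and 0.497. Fresh minus tumor-free was -0.21, with an interval from -0.89 to 0.47, and fresh 3 was the lowest of the 9 arrays.

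The exopeptidases remove residues from the ends of peptides. Ctsz, a carboxypeptidase, had signals of 1578, 2113 and 1070 on cultured arrays, 1023, 852 and 707 on fresh arrays, and 1293, 422 and 515 on tumor-free arrays. Cultured arrays lay above fresh arrays, the nearest being 1070 and 1023, and tumor-free 1 lay between the cultured arrays. Cultured minus tumor-free was 1.21 ± 0.41 (SE) on the log2 scale, with a limma adjusted p of 0.206, and 1.70 without tumor-free 1 (0.0103). Cultured minus fresh was 0.84 (limma adjusted p = 0.350). Fresh minus tumor-free was 0.37, and -0.47 and 0.59 within the arrays of high and of low spike-in signal.

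Ctsh, an aminopeptidase, had signals of 1620, 1050 and 456 on cultured arrays, 590, 595 and 397 on fresh arrays, and 483, 728 and 667 on tumor-free arrays. Cultured 1 and 2 lay above all 6 other arrays of fresh and tumor-free cells, and cultured 3 lay within their range. Cultured minus fresh was 0.82 ± 0.41 (SE) on the log2 scale, with a limma adjusted p of 0.362, and 1.32 without cultured 3 (0.0417).

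Ctsc, a dipeptidyl peptidase that activates the serine proteases of neutrophil granules, had signals at 101019_at of 533, 1054 and 801 on cultured arrays, 860, 729 and 575 on fresh arrays, and 870, 530 and 421 on tumor-free arrays. The 3 groups overlapped, and the differences in the 3 comparisons lay between 0.11 and 0.40 on the log2 scale. The dim probe set 101020_at had signals between 22.0 and 32.1 on cultured, 25.8 and 59.3 on fresh and 27.2 and 37.8 on tumor-free arrays, and its cultured minus fresh difference was -0.30, opposite in sign to the 0.11 of 101019_at.

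Ctsd, the aspartic member, had signals of 1154, 1033 and 2794 on cultured arrays, 929, 838 and 1699 on fresh arrays, and 1247, 968 and 1252 on tumor-free arrays. Cultured 3 and fresh 3, the arrays that stood apart in their groups, had the highest Ctsd signals of all 9. Cultured minus fresh was 0.44 ± 0.40 (SE) on the log2 scale, and -0.01 without cultured 3. Fresh minus tumor-free was -0.06, with a 95% interval from -0.95 to 0.83.

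**Figure D3:**
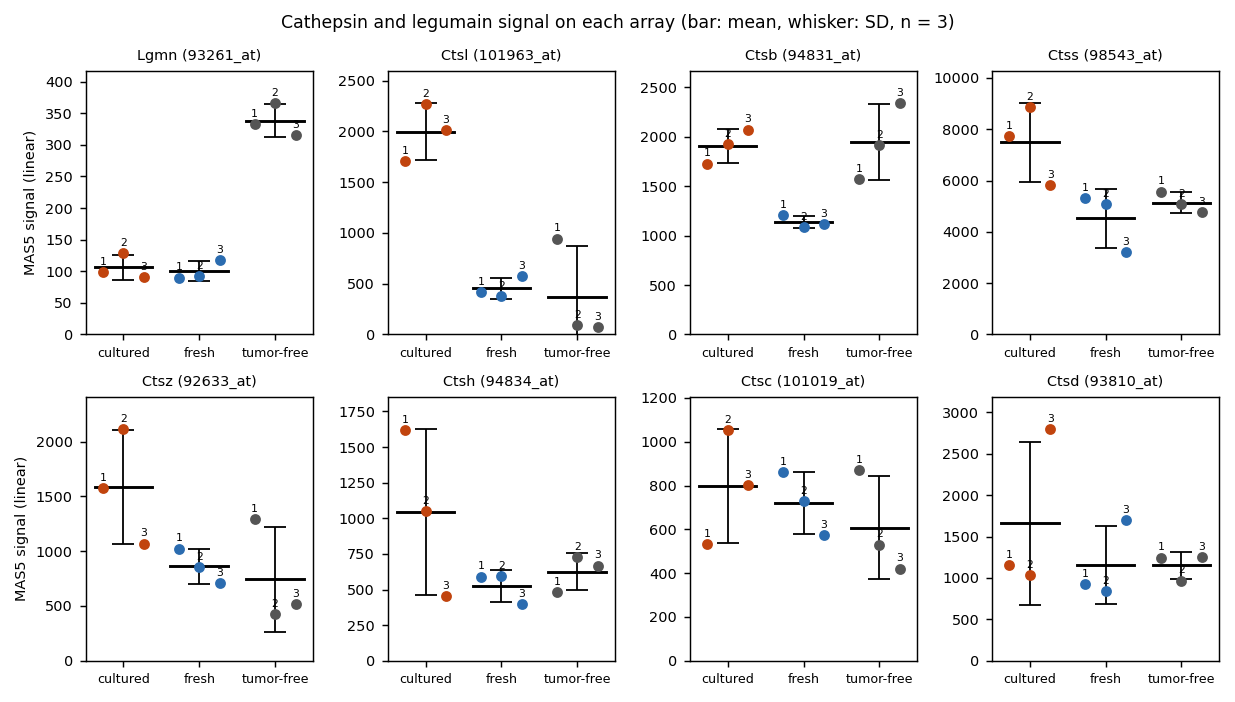
Signal (linear y axis from 0) of each member's brightest probe set on every array, with cultured, fresh and tumor-free arrays from left to right; points are arrays, bars the mean and whiskers the SD (n = 3), the Ctsl whisker of tumor-free cells being cut at 0. The Lgmn points of both tumor-bearing groups lie at or below 128, under the tumor-free points at 316 and above, and the Ctsl point of tumor-free 1 (944) lies far above the other two.

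The members did not share a single pattern over the arrays. Tumor-free 1 exceeded the mean of the other two tumor-free arrays by 3.39 for Ctsl, 1.45 for Ctsz and 0.87 for Ctsc 101019_at on the log2 scale, was below it by 1.11 for Ctsb 95608_at, and differed by -0.03 for Lgmn. Cultured 3 exceeded cultured 1 and 2 by 1.35 for Ctsd, and its Ctsh value differed by -1.50. Fresh 3 differed from fresh 1 and 2 by 0.94 for Ctsd and by -0.57 for Ctsh, in the same directions. Averaged over the 8 genes after each was centred on its own mean, the log2 level was 0.39, 0.61 and 0.33 on cultured arrays, -0.22, -0.33 and -0.32 on fresh arrays, and 0.27, -0.36 and -0.37 on tumor-free arrays. The cultured arrays had the highest averages, and tumor-free 1 lay nearer to them than to its own group. The genes were not scaled to equal spread, so Ctsl weighs most in this average. Its log2 values ran from 6.36 on tumor-free 3 to 11.15 on cultured 2, and the order of the arrays need not hold without it. Among pairs of members, Ctsl and Ctsz correlated most closely over the 9 arrays (r = 0.90), and Ctsl and Lgmn had the lowest correlation (r = -0.60). These correlations describe 9 arrays that share groups and depart together on tumor-free 1.

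**Figure D4:**
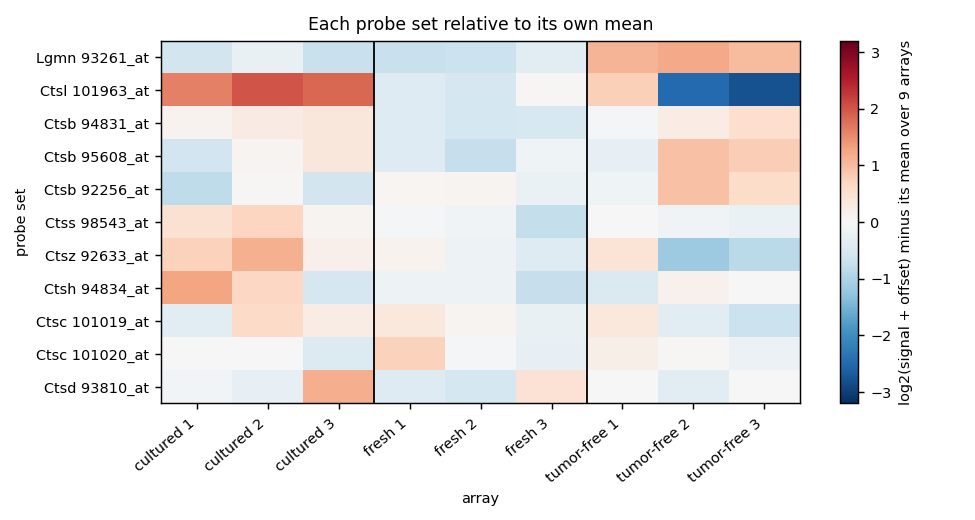
Log2(signal + 7.83) of each tested member probe set (y axis) on the 9 arrays (x axis, cultured, fresh and tumor-free from left to right) minus its mean over the arrays, as colour. Lgmn is high on the 3 tumor-free arrays, and Ctsl and Ctsz are high on the cultured arrays and on tumor-free 1.

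The genes that act around these peptidases were described from 6 lists, each gene by its brightest probe set. Of 7 measured inhibitors of cathepsins and granule proteases, 1 was called lower in fresh against tumor-free cells, beside 0.955% of all tested probe sets. In cultured against tumor-free cells 1 was called lower, beside 0.644%. Both calls were Serpinb6a, a cytosolic serpin whose human counterpart inhibits cathepsin G. Serpinb6a had signals of 50.1, 72.9 and 92.6 on cultured arrays, 102, 80.04 and 85.9 on fresh arrays, and 199, 362 and 358 on tumor-free arrays. It fell by 1.65 in fresh cells and fell by 1.96 in cultured cells on the log2 scale (limma adjusted p = 0.0241 and 0.0133). Leaving out fresh 1, fresh 2, tumor-free 2 or tumor-free 3 ended the first call, with limma adjusted p up to 0.126. Leaving out cultured 1, cultured 2, tumor-free 2 or tumor-free 3 ended the second, with values up to 0.0814, as did fitting only the cultured and tumor-free arrays (0.0770).

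Cstb, the gene of cystatin B, a cytosolic inhibitor of cathepsins B, L and S among others, averaged 3103 ± 408 in cultured, 1510 ± 285 in fresh and 1304 ± 1274 in tumor-free cells (SD, n = 3 each). Its tumor-free signals were 2774, 598 and 539, so that tumor-free 1 was high as for Ctsl. Cultured minus fresh was 1.04 on the log2 scale (limma adjusted p = 0.359). Without tumor-free 1, which is in neither of these groups, it was still 1.04 and was called (0.0276), since the shared spread was lower. Cst7, the gene of cystatin F, an inhibitor that enters the endolysosome and acts on cathepsin C, averaged 97.5 ± 86.6 in cultured, 50.9 ± 38.3 in fresh and 11.0 ± 2.12 in tumor-free cells, with differences from tumor-free cells of 2.08 and 1.43 for cultured and fresh cells (limma adjusted p = 0.184 and 0.305).

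The 10 tested genes of the list of other endolysosomal and granule peptidases include Ctla2b, which is not a peptidase. In each comparison with cultured cells 1 of the 10 was called, beside 1.17% of all tested probe sets lower against fresh and 0.644% lower against tumor-free cells. It was Napsa, an aspartic peptidase related to cathepsin D, which fell in cultured cells. Its signals were 294, 369 and 384 on cultured arrays, 1457, 1485 and 1409 on fresh arrays, and 910, 1993 and 1563 on tumor-free arrays, with all cultured arrays below all others. The difference was -2.04 for cultured against fresh cells (limma adjusted p = 0.00537), called with each array left out in turn. For cultured against tumor-free cells it was -2.01 (0.0115), a call lost without tumor-free 2, tumor-free 3 or cultured 1 (up to 0.0736, limma) and with only the cultured and tumor-free arrays fitted (0.0755). Ctsg, the neutrophil granule protease cathepsin G, averaged 13.2 ± 16.7 in cultured, 77.0 ± 54.9 in fresh and 4.86 ± 3.18 in tumor-free cells, the last below the offset of 7.83, with a fresh minus tumor-free difference of 2.58 (limma adjusted p = 0.0508). No other gene of this list passed.

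Of 24 other lysosomal hydrolases and membrane proteins, 1 was called higher in cultured against fresh cells, beside 1.52% of all tested probe sets. None passed in the other comparisons by limma (4 unadjusted for fresh, beside 16.7% of all, and 5 for cultured against tumor-free cells, beside 14.1%). The called gene was Npc2, a cholesterol carrier of the lysosome lumen. Its signals were 4328, 4148 and 2069 on cultured arrays, 963, 941 and 653 on fresh arrays, and 1258, 1200 and 1066 on tumor-free arrays. Every cultured array lay above every fresh array. The group means differed by 1.98 on the log2 scale (limma adjusted p = 0.00954), and the call was lost without cultured 2 (0.0559). Lipa, the lysosomal acid lipase, averaged 317 ± 151 in cultured and 85.4 ± 23.9 in fresh cells, a difference of 1.73 (limma adjusted p = 0.0699).

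The share of all tested probe sets with an unadjusted p below 0.05 was 16.7%, 16.3% and 14.1% for fresh against tumor-free, cultured against fresh and cultured against tumor-free cells. None of 8 measured genes of mannose 6-phosphate tagging and lysosomal sorting passed by limma in these comparisons, with 2, 0 and 0 unadjusted. None of 5 MiT/TFE and related regulators passed, with 1, 2 and 1 unadjusted. Mitf, the 1 MiT/TFE factor among the 5, had signals of 201, 223 and 241 on cultured arrays, 60.4, 60.0 and 48.6 on fresh arrays, and 213, 43.3 and 48.9 on tumor-free arrays. Its cultured minus fresh difference was 1.84 (limma adjusted p = 0.0645). Without tumor-free 1, which is in neither of these groups, the difference was still 1.84 and was called (0.00181), since the shared spread was lower. None of 11 MHC class II and invariant chain genes passed, with 1, 2 and 2 unadjusted, and their median log2 differences were -0.42, -0.21 and -0.54, beside 0.01, 0.02 and 0.05 for all tested probe sets. Among them H2-DMb1, a chain of the H2-DM factor that exchanges peptides on MHC class II, averaged 357 ± 16.3 in cultured, 720 ± 146 in fresh and 923 ± 405 in tumor-free cells, with limma adjusted p of 0.183 for cultured minus fresh and 0.137 for cultured minus tumor-free.

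**Figure D5:**
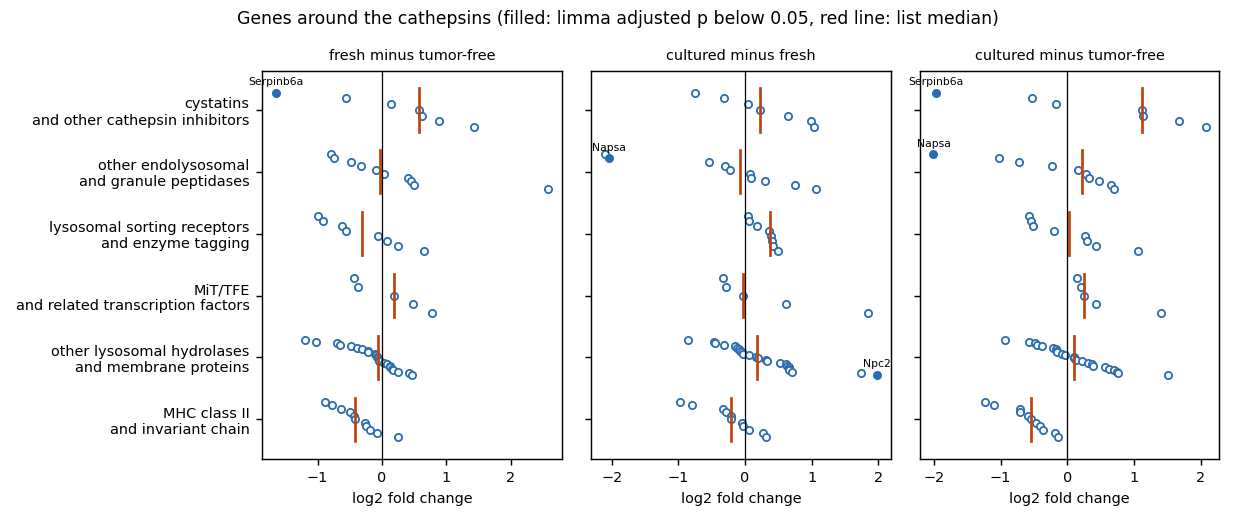
Log2 fold change (x axis) of each measured gene in 6 lists around the cathepsins (rows) for the 3 comparisons (panels), with a red line at each list's median; filled points have a limma adjusted p below 0.05. The filled points are Serpinb6a, Napsa and Npc2.

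Genes with the most similar pattern were ranked by Pearson r over the 9 arrays among 6363 genes, members left out. Nearest to the mean of the 8 members were Socs2 (r = 0.99), Procr (r = 0.98), Lsm1 (r = 0.98), Mitf (r = 0.97) and Gpc1 (r = 0.96). Ctsl weighs most in this mean, and pairs of members correlated at -0.60 to 0.90, so these genes need not follow every member. Socs2 had signals of 342 to 598 on cultured, 94.0 to 119 on fresh and 79.4 to 442 on tumor-free arrays, so cultured arrays lay above fresh arrays and the tumor-free range was wide. For single members the nearest were Cstb for Ctsl (r = 0.99), Naglu for Ctss (r = 0.98), Eif3k for Ctsh (r = 0.97), Tspan4 for Lgmn (r = 0.97), Hmox1 for Ctsb (r = 0.96), Adam9 for Ctsz (r = 0.96), Cars for Ctsd (r = 0.93) and Hnf4g for Ctsc (r = 0.91). Tspan4, nearest to Lgmn, had signals of 3.65 to 6.51 on cultured, 3.30 to 8.43 on fresh and 74.2 to 118 on tumor-free arrays, the first range below the offset. The ranking is over arrays that include 3 of each group and the shared departure of tumor-free 1, and it describes these arrays.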

How the data were processed

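CD11b+ spleen cells were profiled on 9 Affymetrix MG-U74Av2 arrays in 3 groups of 3, taken from the sample titles. Each array was deposited as an intensity per probe set, the linear MAS5 signal named in the submitters' processing notes, whose version and settings were not given in the sources used here. No detection calls were used here, so a dim signal may or may not be above background. Precision is limited by the number of arrays. Signals near the offset have little meaning as a level, and no probe set's level was set against another's.

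An offset of 7.83 (percentile 20 of the signals) was added before log2. The filter removed 66 controls and then the dimmest 30%, so 8695 probe sets were tested. limma 3.58.1 (R 4.3.3) fitted 3 group means to all 9 arrays, leaving 6 residual degrees of freedom, with the moderated variance allowed to follow signal level; tests were two-sided, adjusted by Benjamini-Hochberg over all of these. On simulated data the fit recovered 13.7% to 16.7% of log2 changes of 1, 69.1% to 71.6% of 2 and 96.0% to 97.4% of 4, with 5.7 to 8 false calls on average, over the 3 comparisons. The simulated noise was independent for each probe set and array, without arrays that depart as a whole. These rates therefore need not hold for the measured arrays.

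In the platform annotation 10855 probe sets had 1 symbol, 396 had several, and 1237 were not listed. Of the first, 10839 matched a RefSeq table of GRCm38.p6 by gene ID, with 0 symbols changed; the sequences are RefSeq's. The members and lists were chosen with earlier results of these data known. Named are every member, 2 genes per list and comparison (called ones first, otherwise the largest differences) as far as they add to the text, the markers C1qa and Itgam, and the genes nearest by r. Differences within arrays split at the median spike-in signal are values with no test. Alternatives were quantile normalization, median centring, no intensity trend, other offsets and filters, spike-in class, beta-actin ratio, replicate number, only the groups compared, and each array left out.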

Additional observations from a re-analysis of the deposited data

How the results depend on the processing

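Leaving out each array in turn gave 62 to 624 called probe sets for fresh against tumor-free, 74 to 489 for cultured against fresh and 21 to 529 for cultured against tumor-free cells, beside 165, 234 and 107 with all arrays. The highest was without tumor-free 1 each time, and members called ranged from 1 to 3, 0 to 1 and 0 to 3. The calls numbered 277, 556 and 177 with a block for spike-in class, and 402, 441 and 204 with the beta-actin ratio as a covariate. With only the groups compared in the fit they were 161, 321 and 14. Members called were then 1, 1 and 0, and with the beta-actin ratio 2 in cultured against tumor-free cells, where Ctsl joined Lgmn (limma adjusted p = 0.0264). Lgmn lost its call in cultured against tumor-free cells with only those groups fitted (0.0533), as did Serpinb6a (0.0770) and Napsa (0.0755). Without tumor-free 1, fresh 3 and cultured 3, chosen after seeing the data because they differ most, which lowers the spread by construction, 2141, 1368 and 1813 probe sets and 5, 5 and 7 members were called.

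The correlations did not settle whether the replicate numbers pair the arrays. Same-numbered arrays correlated at -0.20 to 0.26 in their deviations, with 5 of 9 pairs above 0.1. Of differently numbered pairs (-0.28 to 0.26), 4 of 18 were above 0.1, and 4 of 9 arrays correlated best with their own number. A replicate block gave 200, 258 and 144 calls, and 1, 0 and 2 members, Ctsl being added in cultured against tumor-free cells (limma adjusted p = 0.0454).

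Of 690 member values tested under other settings, 641 kept direction and side of the threshold, 24 passed it anew, 3 lost it and 22 turned sign, none of these 22 being called. The new passes include those without the 3 arrays that stand apart, where 5, 5 and 7 members were called against 1, 0 and 1 with all arrays. Where the array left out was in neither group compared, the difference could not change, and only the spread did. Of 66 values within a spike-in class, which have no test, 13 turned sign. The cause was not tested. For fresh minus tumor-free, within the high spike-in class Ctsb 92256_at was 0.21, Ctsc 101019_at -0.14, Ctsh 0.29, Ctsl -1.23 and Ctsz -0.47; within the low class Ctsc 101020_at was -0.18 and Ctsd 0.62. The spike-in block gave Ctsc 101020_at -0.0080 and Ctsd 0.17. For cultured minus fresh, Ctsc 101019_at was -0.011 with the beta-actin ratio and -0.076 within the high class, and Lgmn -0.34 within the low class. For cultured minus tumor-free, Ctsb 94831_at was 0.014 after quantile normalization, 0.053 with the spike-in block, 0.073 with the beta-actin ratio and 0.21 within the high class, where Ctsc 101019_at was -0.21 and Ctsd -0.19; Ctsh was -0.60 within the low class. Without the 3 arrays that stand apart, Ctss was 0.079 in fresh minus tumor-free, Ctsc 101019_at -0.076 in cultured minus fresh, and Ctsc 101020_at 0.061 and Ctsd -0.011 in cultured minus tumor-free.

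With each array left out, fresh minus tumor-free ranged from -0.16 to 0.33 for Ctsc 101020_at, -0.38 to 0.13 for Ctsd and -0.34 to 0.019 for Ctss. Cultured minus fresh ranged from -0.12 to 0.37 for Ctsc 101019_at, -0.50 to 0.0016 for Ctsc 101020_at, -0.0083 to 0.75 for Ctsd and -0.062 to 0.19 for Lgmn. Cultured minus tumor-free ranged from -0.15 to 0.13 for Ctsb 94831_at and -0.071 to 0.64 for Ctsd.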
